A study of Mus musculus with 8 samples.

Results

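The genes described here are the core of the MHC class I presentation pathway, read in whole mouse islets of 3 genotypes. They were chosen by symbol and role and not by a cut on measured values, although earlier results of these data were known. They are the class I heavy chains H2-K1 and H2-D1 with their partner B2m, the peptide transport and loading genes Tap1, Tap2 and Tapbp, the immunoproteasome subunits Psmb8, Psmb9 and Psmb10, and the class I transactivator Nlrc5. All 10 were among the 24123 genes of the deposited matrix and among the 12594 genes tested.

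Islets of adult male mice were compared in 8 RNA-Seq libraries. The 3 Control libraries (replicates 1, 3 and 4) came from Irs2+/+;Cdk4-WT/WT mice, the 3 Diabetic libraries (replicates 1, 2 and 3) from Irs2-/-;Cdk4-WT/WT mice, and the 2 Rescue libraries (replicates 1 and 2) from Irs2-/-;Cdk4-R24C/R24C mice, in which both Cdk4 alleles carry a mutation that makes the kinase resistant to INK4 inhibitors. The Irs2 deletion and the Cdk4 knock-in were present in every tissue, so the islets came from different metabolic environments. The Irs2 allele arose on a mixed B6;129 background, the mice were crossed into C57BL/6N without extensive backcrossing, and littermates from several litters were used. Islets were isolated with collagenase and a Ficoll gradient, picked by hand and flash frozen without further treatment. Whether a library held the islets of 1 mouse or of several was not stated, so the tests measure the spread between these libraries, and there was no Irs2+/+;Cdk4-R24C/R24C group among them.

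Class I molecules display fragments of the cell's own proteins to CD8 T cells on nearly every nucleated cell. Proteasomes cut the proteins, the TAP transporter carries the peptides into the endoplasmic reticulum, and tapasin helps to load them onto a heavy chain paired with beta2-microglobulin. Interferons raise all of these steps and exchange the catalytic subunits of the standard proteasome for those of the immunoproteasome. In pancreatic islets, raised class I is best known from type 1 diabetes, where CD8 T cells recognise beta cells.

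Of the 10 genes, 7 lie on chromosome 17, B2m on chromosome 2, and Psmb10 and Nlrc5 on chromosome 8 (GRCm38). H2-K1 (33996017 to 34000347, minus strand) and H2-D1 (35262730 to 35267499, plus strand) flank the class II and class III regions of the mouse MHC. Tapbp (33915899 to 33929292) lies just before H2-K1, and Psmb9, Tap1, Psmb8 and Tap2 lie side by side between the heavy chain genes (34181987 to 34216321). Several members overlap another annotated gene: B2m lies within the antisense gene Patl2 over its whole 5398 bases, Psmb10 within the antisense gene Gm16156 over 2710 bases, Tapbp shares 3422 bases with Zbtb22 on its own strand, and Tap1 and Psmb9 share 212 bases on opposite strands. The strand setting used in counting was not given in the sources used here, so the division of reads at these overlaps is uncertain. H2-D1 shared 1.79% of its 150-base transcript windows with another gene, H2-Q1, and the other members shared none.

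The promoters of the 3 class I chain genes are printed because they hold in common the letters of the X2 box (TGACG) and the Y box (ATTGG) of class I promoters, 20 bases apart. Each run is the 250 bases before the RefSeq start (GRCm38.p6), 5' to 3', with the capitals marking, from left to right, an NF-kB consensus, the interferon regulatory factor core AANNGAAA (here on the opposite strand), X2 and Y. In B2m the interferon regulatory factor core comes first and lies on the gene's own strand.
H2-K1, chr17:34000348-34000597, minus strand: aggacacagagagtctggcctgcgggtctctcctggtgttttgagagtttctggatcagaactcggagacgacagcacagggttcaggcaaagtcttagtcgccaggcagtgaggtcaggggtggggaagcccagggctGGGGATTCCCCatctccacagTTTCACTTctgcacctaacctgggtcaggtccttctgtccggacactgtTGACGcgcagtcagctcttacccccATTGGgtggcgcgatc
H2-D1, chr17:35262844-35263093, plus strand: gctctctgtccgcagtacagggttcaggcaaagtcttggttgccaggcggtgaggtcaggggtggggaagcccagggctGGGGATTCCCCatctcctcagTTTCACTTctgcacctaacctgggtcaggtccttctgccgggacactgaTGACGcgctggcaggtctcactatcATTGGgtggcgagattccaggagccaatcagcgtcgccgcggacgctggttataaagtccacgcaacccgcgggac
B2m, chr2:122147437-122147686, plus strand: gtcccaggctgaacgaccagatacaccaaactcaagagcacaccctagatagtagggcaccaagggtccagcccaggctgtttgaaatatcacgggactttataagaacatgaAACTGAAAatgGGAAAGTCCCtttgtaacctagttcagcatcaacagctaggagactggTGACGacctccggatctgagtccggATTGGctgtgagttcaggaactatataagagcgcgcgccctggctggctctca

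The X2 and Y letters at this spacing occurred in 30 of 32851 promoter windows of the same length, or 0.0913%, on either strand. The spacing was taken from these sequences after they had been read, so the share is a description and no test. The core AANNGAAA was found in 21.3% and the NF-kB consensus in 7.25% of the windows. None of these 3 patterns occurred in the windows of Tap1, Tapbp, Psmb8, Psmb9 or Psmb10, which says only that those letters are not in these 250 bases. The windows of Tap1 and Psmb9 face in opposite directions and share 225 bases. In all, 8 of the 10 members had a window, and Tap2 and Nlrc5 had none.

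Whole reads recovered from the deposited values summed to 10289662 (Diabetic replicate 2) to 14315976 (Control replicate 1) reads in genes per library. Values are RPKM, the reads of a gene divided by its length and by the library's total. The lengths used were not given in the sources used here, so levels set beside each other between genes depend on them. The merged exons of Psmb9 hold 3660 bases and its longest transcript 2884, and those of Psmb8 3381 and 1907. Insulin transcripts marked every library as islet tissue, with Ins2 between 54230 and 106700 RPKM. Irs2 was 5.14 to 10.96 RPKM in Control, 21.98 to 36.27 in Diabetic and 7.15 to 16.3 in Rescue. It was higher in Diabetic than in Control by 1.87 ± 0.34 on the log2 scale (SE; limma, adjusted p = 0.0271), although the Diabetic mice carry the deletion. The value does not show which part of the transcript the reads came from, so it does not check the labels, and groups are called here what the labels call them. For Cdk4, whose point mutation a gene-level value cannot show, levels were 24.2 to 42.4 RPKM in Control, 18.0 to 25.9 in Diabetic, and 30.9 and 41.5 in Rescue, with no call. Nuclear-retained RNAs such as Malat1 and Neat1 varied among libraries of 1 genotype, with the 5 genes of that list summing to 94.5 to 607 RPKM in Control, 103 to 291 in Diabetic and 304 to 1444 in Rescue. A covariate for this list was tried as an alternative fit. Diabetic replicate 3 stood apart from the other Diabetic libraries in the class I genes and in leukocyte markers, so results that rest on it are also given without it.

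The heavy chains were the most abundant members in Control islets on the RPKM scale. H2-K1, the classical K heavy chain, was 106, 119 and 109 RPKM in the Control libraries, 185, 153 and 116 in the Diabetic libraries, and 325 and 348 in the Rescue libraries. Both Rescue values exceeded every other value, while Diabetic replicate 3 lay inside the Control range. H2-D1, the classical D heavy chain, was 86.9, 97.4 and 94.6 RPKM in Control, 166, 152 and 104 in Diabetic, and 258 and 301 in Rescue. It was the 1 member whose Diabetic values all lay above the Control values, as did those of 10.2% of all tested genes. The ratio of H2-D1 to H2-K1 stayed between 0.794 and 0.989 in all 8 libraries.

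B2m, the invariant light chain without which class I molecules do not reach the surface, had the widest span of the chains. It was 64.2, 71.9 and 92.0 RPKM in Control, 211, 218 and 80.4 in Diabetic, and 762 and 853 in Rescue. Mean B2m was 76.1 ± 14.4 RPKM in Control (SD, n = 3), 170 ± 77.6 in Diabetic (SD, n = 3) and 808 ± 64.2 in Rescue (SD, n = 2), a Rescue to Control ratio of 10.6. Diabetic replicate 3 was again inside the Control range. In Control islets B2m was below H2-K1, with a B2m to H2-K1 ratio of 0.603, 0.602 and 0.846 on the RPKM scale, whereas in Rescue it was above, at 2.35 and 2.45.

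The subunits of the peptide transporter differed from each other. Tap1 was 2.07, 2.63 and 2.08 RPKM in Control, 5.42, 4.26 and 1.75 in Diabetic, and 19.0 and 17.2 in Rescue. Tap2 was higher in level and narrower in range, at 8.42, 10.2 and 8.58 RPKM in Control, 11.5, 9.22 and 7.73 in Diabetic, and 24.5 and 22.7 in Rescue. Diabetic replicate 3 gave the lowest value of all 8 libraries for both. Tap1 to Tap2 ratios were 0.246, 0.258 and 0.242 in Control, 0.472, 0.462 and 0.226 in Diabetic, and 0.774 and 0.759 in Rescue.

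Tapbp, which encodes tapasin, followed another order. It was 43.4, 40.7 and 50.8 RPKM in Control, 34.4, 36.0 and 41.9 in Diabetic, and 61.7 and 66.7 in Rescue. Diabetic replicates 1 and 2, which were above the Control range for most members, were below it for Tapbp. Its highest library was 1.94 times its lowest, the smallest span of the 10 genes.

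The immunoproteasome subunits were low in Control islets. Psmb8 (LMP7, which takes the place of Psmb5) was 3.34, 4.35 and 3.62 RPKM in Control, 8.23, 6.86 and 3.05 in Diabetic, and 38.0 and 33.6 in Rescue. Psmb9 (LMP2, which takes the place of Psmb6) was 1.23, 1.52 and 1.34 RPKM in Control, 2.45, 2.29 and 0.682 in Diabetic, and 13.5 and 10.9 in Rescue. Psmb10 (MECL-1, which takes the place of Psmb7) was 4.70, 5.97 and 4.78 RPKM in Control, 6.33, 6.32 and 4.71 in Diabetic, and 22.2 and 16.4 in Rescue. In each of the 3 genes Diabetic replicates 1 and 2 were above the Control range, and Diabetic replicate 3 was below it for Psmb8 and Psmb9.

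Nlrc5, which is recruited to class I promoters and drives their transcription, was rare in Control and in Diabetic replicate 3. It was 0.0780, 0.258 and 0.108 RPKM in Control, 1.26, 0.700 and 0.0734 in Diabetic, and 7.14 and 8.25 in Rescue. These values came from 10, 28 and 13 reads in Control, 148, 64 and 8 in Diabetic, and 734 and 850 in Rescue. Nlrc5 passed the filter of at least 1 RPKM in 2 libraries only with the Rescue libraries, so high Rescue values were a condition of its being tested. Its fitted differences are given as a description, and counts and medians of the members also without it.

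**Figure D1:**
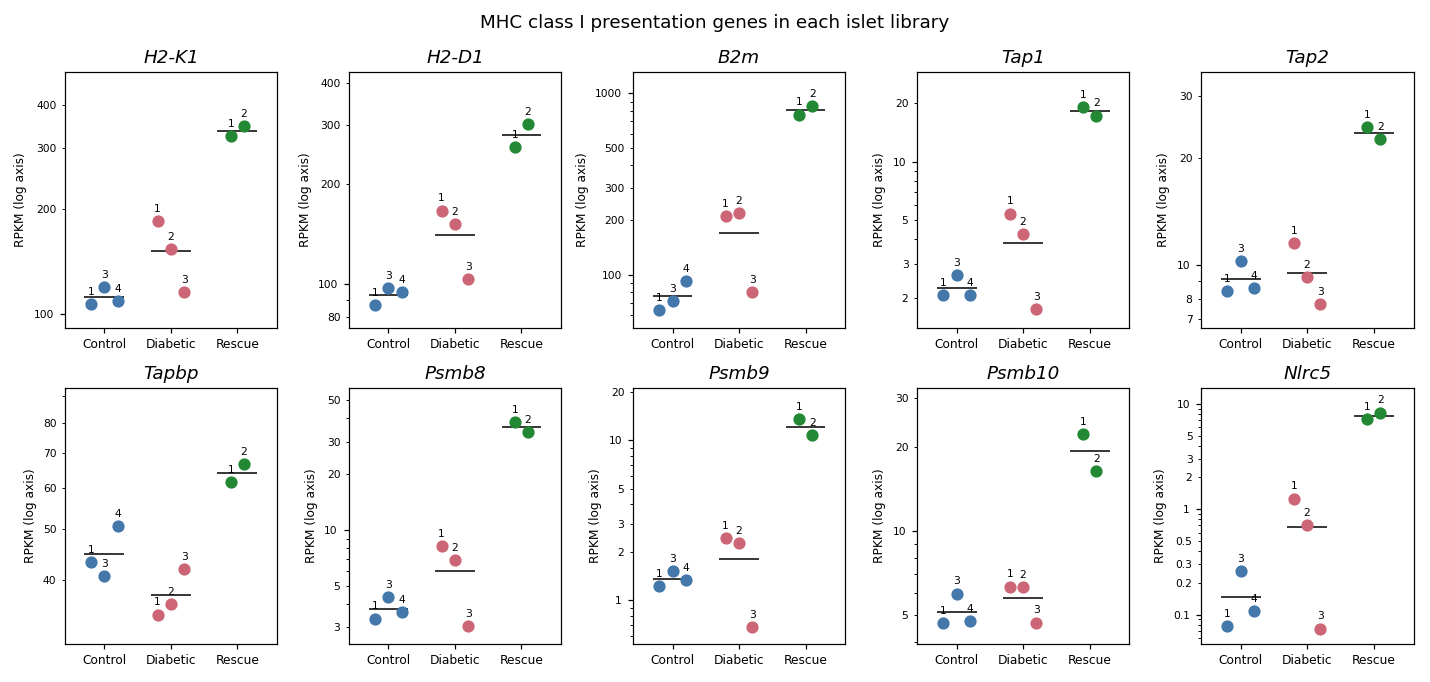
RPKM of each MHC class I presentation gene (log axes, 1 panel a gene) in the Control, Diabetic and Rescue islet libraries; points are libraries with their replicate numbers and lines are group means. Both Rescue libraries sit above all Control and Diabetic libraries in the 10 panels. Among the Diabetic libraries, replicate 3 is the highest for Tapbp and the lowest in the other panels.

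Diabetic and Control islets differ by label in Irs2, and with it in the metabolic state of the mice. The Diabetic libraries did not move as a group. Diabetic replicate 1 was above the Control range for 9 of the 10 genes and replicate 2 for 8, with Tapbp below it in both. Diabetic replicate 3 was above the range for H2-D1 alone, inside it for 4 genes and below it for 5, namely Tap1, Tap2, Psmb8, Psmb9 and Nlrc5.

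No member passed the test between Diabetic and Control (limma on log2(RPKM + 1), adjusted p under 0.05), against 3.97% of all tested genes called in either direction and 1.53% called higher. At an unadjusted p under 0.05, 3 members were higher (H2-K1, H2-D1 and B2m), against 7.92% of all genes. On the log2(RPKM + 1) scale, which understates the change of low genes, the estimate for B2m was 1.03 ± 0.36 (SE, adjusted p = 0.134), that for H2-D1 0.56 ± 0.18 (adjusted p = 0.119) and that for Tapbp -0.26 ± 0.13 (adjusted p = 0.284). The median over the members was 0.45, beside -0.12 over all genes. When each library was left out in turn, the count stayed at 0 for 7 of the 8 libraries, Diabetic replicates 1 and 2 among them. Without Diabetic replicate 3 it was 6 (H2-K1, H2-D1, B2m, Tap1, Psmb8 and Nlrc5, or 5 without Nlrc5), against 5.21% of all genes called higher, with B2m at 1.50 (adjusted p = 0.00443). That library is singled out for its low values of these same genes, so the 6 calls are a measure of its weight and no independent evidence of a difference. With TMM scaling H2-D1 alone was called (0.71, adjusted p = 0.0409), and the share of higher genes among all calls moved from 38.6% to 68.5%.

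Rescue and Diabetic islets are both Irs2-null and differ by label in Cdk4-R24C, and with it in the metabolic state of the mice. The members differed between them in size but not in direction. All 10 rose, or 9 of 9 without Nlrc5, against 24.0% of all genes called higher and 29.8% called in either direction. Among the 11672 genes that pass the filter without the Rescue libraries, 19.6% were higher. The 10 also lay above the Diabetic range in both Rescue libraries, as did 42.0% of all genes. On the log2(RPKM + 1) scale, the largest rises among the 9 were those of Psmb8 by 2.47 ± 0.32 (SE, adjusted p = 0.00172) and B2m by 2.37 ± 0.40 (adjusted p = 0.00397). Psmb9 rose by 2.30 ± 0.30 (adjusted p = 0.00178) and Tap1 by 2.08 ± 0.32 (adjusted p = 0.00294). Smaller rises were those of Psmb10 (1.58 ± 0.19), Tap2 (1.25 ± 0.18), H2-K1 (1.17 ± 0.19), H2-D1 (1.01 ± 0.20) and Tapbp (0.77 ± 0.15), with adjusted p between 0.00156 and 0.0083. Nlrc5 stood at 2.44 ± 0.28 on this scale and, because it is low in Diabetic islets, at 4.26 with limma voom. The median over the members was 1.83, or 1.58 without Nlrc5, beside 0.24 over all genes. In whole islets, more cells that express a gene and more of its RNA per cell cannot be told apart.

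Of these calls, H2-D1 missed the threshold with the nuclear RNA covariate (0.91, adjusted p = 0.0521), and Tapbp with TMM scaling (0.57, adjusted p = 0.0508) and with median-of-ratios scaling (0.52, adjusted p = 0.0826). Over all genes the share of higher genes among the calls was 80.5%, and it was 60% with TMM scaling, 55.9% with median-of-ratios scaling and 43.3% with quantile normalization.

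Rescue against Control compares the double mutant with the wild type. All 10 members rose, or 9 of 9 without Nlrc5, against 18.0% of all genes called higher, 13.2% of those that pass the filter without the Rescue libraries, and 23.5% called in either direction. All 10 lay above the Control range in both Rescue libraries, as did 33.1% of all genes. Among the 9, B2m had the largest estimate on the log2(RPKM + 1) scale, 3.41 ± 0.40 (SE, adjusted p = 0.000664), followed by Psmb8 at 2.95 ± 0.32 (adjusted p = 0.000518). Nlrc5 stood at 2.92 ± 0.28 on this scale, at 5.90 with limma voom, and at a Rescue to Control ratio of mean RPKM of 52.0, the highest of the 10. Tap1 rose by 2.55 ± 0.32, Psmb9 by 2.47 ± 0.30, Psmb10 by 1.71 ± 0.19, H2-K1 by 1.58 ± 0.19, H2-D1 by 1.58 ± 0.20 and Tap2 by 1.29 ± 0.18, with adjusted p between 0.000611 and 0.00124. Tapbp was the weakest, at 0.51 ± 0.15 (adjusted p = 0.0388), and its call was lost in 12 of the 22 alternative fits. The median over the members was 2.10, or 1.71 without Nlrc5, beside 0.08 over all genes. The share of higher genes among all calls was 76.7%, and 62.1% with median-of-ratios scaling and 42.1% with quantile normalization. The same Rescue libraries serve against Diabetic and against Control, so these sets of values are not independent.

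**Figure D2:**
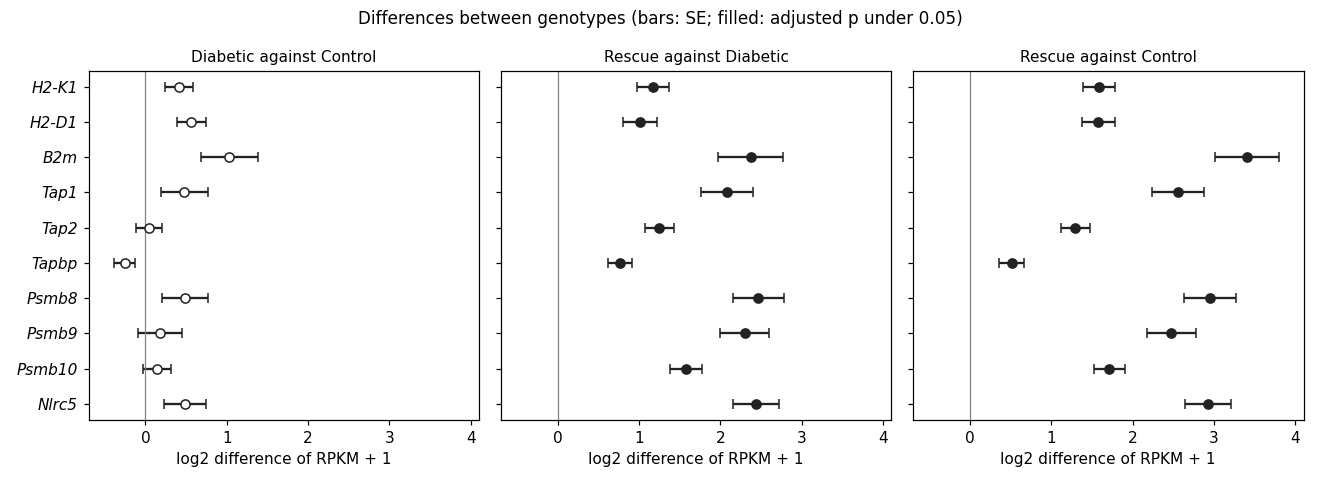
Log2 difference of RPKM + 1 for each member (rows) in the 3 comparisons between genotypes (panels), from limma on all 8 libraries; bars are standard errors and filled points have an adjusted p under 0.05. No point is filled for Diabetic against Control, where B2m reaches 1.03, and all 10 are filled in both Rescue panels, with Tapbp lowest at 0.77 and 0.51.

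Setting each immunoproteasome subunit against the standard subunit that it replaces removes any scaling of the library. Psmb8 was 0.138, 0.187 and 0.187 of Psmb5 in Control, 0.404, 0.404 and 0.158 in Diabetic, and 1.31 and 1.31 in Rescue. Rescue was thus the only genotype in which the immune subunit exceeded its standard counterpart on the RPKM scale. Where this ratio crosses 1 depends on the gene lengths used, whereas its order among libraries does not. Psmb9 was 0.0325, 0.0411 and 0.0452 of Psmb6 in Control, 0.0664, 0.0673 and 0.0211 in Diabetic, and 0.243 and 0.265 in Rescue. Psmb10 was 0.231, 0.321 and 0.262 of Psmb7 in Control, 0.349, 0.333 and 0.267 in Diabetic, and 0.925 and 0.738 in Rescue.

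All 3 ratios separated Rescue from the other genotypes without overlap, and none separated Diabetic from Control. The log2 ratio of Psmb8 to Psmb5 was 2.15 higher in Rescue than in Diabetic and 2.95 higher than in Control. For Psmb9 to Psmb6 these differences were 2.48 and 2.69, and for Psmb10 to Psmb7 they were 1.39 and 1.62. The exact two-sided permutation test gave p = 0.2 for each of these 6 differences (adjusted p = 0.257 over 9 tests), which is the smallest p that 3 against 2 libraries allow. Between Diabetic and Control the same exact test gave p = 0.3, 0.8 and 0.2 for the ratios of Psmb8, Psmb9 and Psmb10, where 0.1 is the smallest possible. The standard subunits varied less: Psmb5 ranged from 16.97 to 29.02 RPKM, Psmb6 from 29.72 to 55.69 and Psmb7 from 17.63 to 24.05 over the 8 libraries.

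**Figure D3:**
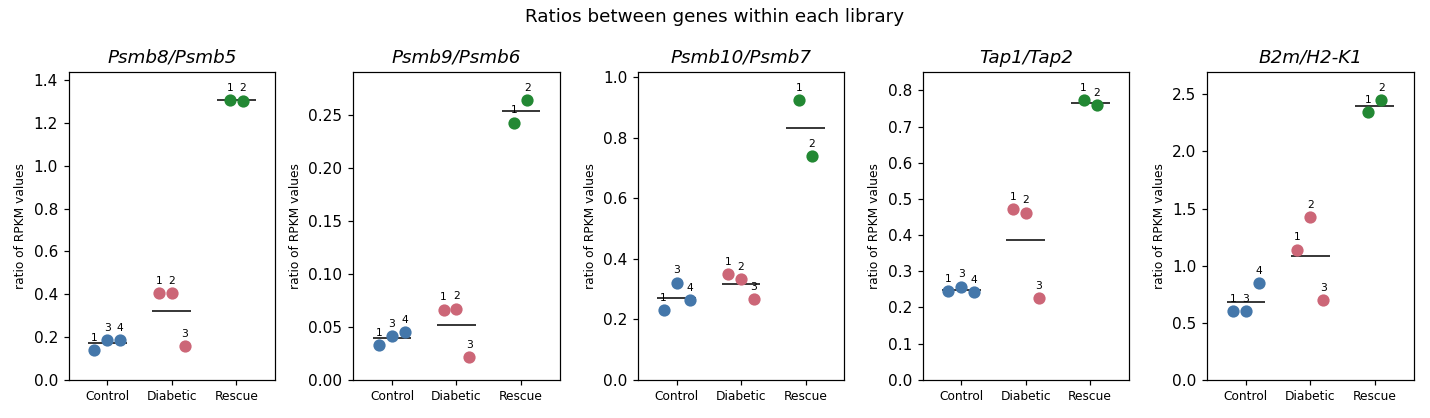
Ratios of RPKM values within each library (axes start at 0) for the 3 immunoproteasome subunits over their standard counterparts, for Tap1 over Tap2 and for B2m over H2-K1; points are libraries with replicate numbers and lines are group means. Psmb8 over Psmb5 is 0.138 to 0.187 in Control and 1.31 in both Rescue libraries, with Diabetic replicates 1 and 2 at 0.404.

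The profiles of some pairs of members lay close together and those of others far apart. Likeness was measured as the root mean square distance between centred log2(RPKM + 1) profiles over the 8 libraries, which includes the differences between genotypes. This distance grows with unlike sizes of change, so genes that rise in the same libraries can lie far apart. The SD of the centred values was 1.492 for B2m and 0.692 for H2-K1. Adding 1 to the RPKM narrows the span of low genes such as Nlrc5. The nearest pairs were H2-K1 and H2-D1 (0.095), Psmb8 and Nlrc5 (0.118), and Tap1 and Psmb9 (0.155), which stand head to head on chromosome 17. Psmb8 and Psmb10, whose products work in the same particle, were 0.533 apart, and B2m and H2-K1, whose products form a dimer, 0.767. Tapbp was farthest from the mean profile of the members (0.684), and the largest distance of any pair was that of B2m and Tapbp (1.223).

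By the same distance, the gene outside the pathway nearest to the members' mean profile was Slamf6, a receptor of T, B and NK cells (0.069). It was 0.00, 0.123 and 0.00648 RPKM in Control, 0.755, 0.455 and 0.00720 in Diabetic, and 3.81 and 3.96 in Rescue. Cd84, a receptor of the same family (0.077), Rps6ka1, a kinase below ERK (0.080), Maf, a transcription factor of macrophages and T cells (0.089), and Actb, cytoplasmic actin (0.092), came next. The list of 10 was completed by Tgfbr2, Rhof, Arhgap15, Sulf1 and Snx20 at 0.093 to 0.101. Of the 10, 7 passed the filter only with the Rescue libraries (Slamf6, Cd84, Maf, Rhof, Arhgap15, Sulf1 and Snx20), so their high Rescue values were a condition of their being tested and the pseudocount of 1 shapes their low values. The 3 others were Rps6ka1, Actb and Tgfbr2, and Actb was 164 to 188 RPKM in Control, 256, 233 and 142 in Diabetic, and 769 and 657 in Rescue. The order rests on 8 libraries and on genotype differences that many genes share.

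The standard proteasome moved far less than the immunoproteasome. Of the 14 genes of the constitutive 20S proteasome, 7 were higher in Rescue than in Diabetic and none lower, with a median of 0.51, beside 24.0% of all genes called higher. Against Control 3 of the 14 were higher, near the 18.0% of all genes, and this was 1 with median-of-ratios scaling, 0 without Rescue replicate 1 and 6 without Rescue replicate 2. The largest rise against Diabetic was that of Psmb3, a structural subunit, at 0.90 (adjusted p = 0.00836), followed by Psma4 at 0.74 (adjusted p = 0.0171). The count against Diabetic was 3 with TMM scaling, 1 with median-of-ratios scaling, 1 with the nuclear RNA covariate, 1 without Diabetic replicate 2, 3 without Diabetic replicate 3 and 0 without Rescue replicate 1. Of the 6 genes for PA28 activators and proteasome assembly, 4 were higher in Rescue than in Diabetic, or 2 under each of the other scalings, with the nuclear RNA covariate, without Diabetic replicate 2 and without Rescue replicate 1. They were led by the interferon-inducible PA28 subunits Psme1 (1.62, adjusted p = 0.00107) and Psme2 (1.15, adjusted p = 0.00306).

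The endoplasmic reticulum partners of peptide loading went another way. Of 6 such genes, none was higher in Rescue than in Diabetic and 2 were lower, as were 5.80% of all genes; the number lower was 4 with median-of-ratios scaling and 1 with the nuclear RNA covariate, without Diabetic replicate 2 or without Rescue replicate 1. These were Uggt1, the glucosyltransferase that checks glycoprotein folding (-1.15, adjusted p = 0.00557), and Pdia3, the disulfide isomerase of the loading complex (-0.79, adjusted p = 0.0267). Uggt1 was 29.3, 30.0 and 31.3 RPKM in Control, 51.9, 61.5 and 50.8 in Diabetic, and 18.3 and 31.4 in Rescue. It was the 1 gene of this list called in Diabetic against Control, at 0.83 with an adjusted p of 0.05 to 2 decimals, just inside the threshold, and this call was lost with limma voom, with the nuclear RNA covariate and without either of Diabetic replicates 1 and 2. Calr, which holds class I chains in the loading complex, was 341 to 451 RPKM in Control, 526 to 602 in Diabetic, and 434 and 437 in Rescue, and was not called in Diabetic (adjusted p = 0.0802). All of these also serve the folding of other secreted proteins.

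Among 18 nonclassical and class I-like chains, 14 were tested. Against Diabetic, 9 of them were higher in Rescue (5 without Rescue replicate 1) and 1 was lower. Of the 12 that pass the filter without the Rescue libraries, 7 were higher, beside 19.6% of all such genes. Over all tested genes 24.0% were called higher than in Diabetic and 5.80% lower. H2-Q7, a Qa-2 chain, was 0.248, 0.368 and 0.313 RPKM in Control, 4.77, 2.94 and 0.201 in Diabetic, and 26.2 and 26.5 in Rescue (3.18 against Diabetic, adjusted p = 0.00421). H2-Q6 and H2-M2 rose with it, by 3.29 (adjusted p = 0.0258) and 2.83 (adjusted p = 0.00306). H2-Q4 rose by 2.06 (adjusted p = 0.00323). The member that fell, H2-Q2, fell by 0.74 (adjusted p = 0.0248), a call lost with the nuclear RNA covariate, without Diabetic replicate 2 and without Rescue replicate 1. Against Control, 10 of the 14 were higher and 1 lower, beside 18.0% of all genes called higher and 5.48% called lower. Of the 12 that pass the filter without the Rescue libraries, 8 were higher than in Control, beside 13.2% of all such genes. The H2-Q and H2-T genes are close copies, and how reads were divided among them is uncertain.

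Transcription factors that act on class I promoters rose in Rescue as well, with 11 of 17 higher than in Diabetic (6 without Rescue replicate 1 and 7 without Rescue replicate 2) and 9 of 17 higher than in Control (5 without any 1 of Diabetic replicate 2, Rescue replicate 1 and Rescue replicate 2). Over all genes, 24.0% were called higher than in Diabetic and 18.0% higher than in Control. Irf1, which interferon-gamma induces and which binds the interferon response element, was 9.68, 8.38 and 7.08 RPKM in Control, 10.1, 6.97 and 6.21 in Diabetic, and 23.1 and 25.5 in Rescue (1.55 against Diabetic, adjusted p = 0.002). The largest rises were those of Irf8 (2.63, adjusted p = 0.00711) and Ciita, the class II transactivator (2.44, adjusted p = 0.0201), both known from leukocytes. The subunits of the RFX complex that binds the X box were not called.

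Of the interferon receptor and JAK genes tested, 5 of 7 were higher in Rescue than in Diabetic (3 with median-of-ratios scaling), beside 24.0% of all genes. They were led by Ifngr1 (1.47, adjusted p = 0.00146) and Jak2 (0.99, adjusted p = 0.00701). Ifng itself was at 0 in 4 libraries, at most 0.144 RPKM in 3 others and 0.891 in Rescue replicate 2, and was not tested. Of 23 tested interferon-induced genes, 18 were higher in Rescue than in Diabetic and 19 higher than in Control, or 14 and 15 of the 19 that pass the filter without the Rescue libraries. The shares over all genes were 24.0% and 18.0%, and 19.6% and 13.2% among all genes that pass without the Rescue libraries. Cxcl10, a chemokine for T cells, was 0.0294, 0.0696 and 0.156 RPKM in Control, 1.03, 1.20 and 0.138 in Diabetic, and 6.09 and 8.12 in Rescue (2.23 against Diabetic, adjusted p = 0.00164). Gbp2 (2.23, adjusted p = 0.0115) and Igtp (1.95, adjusted p = 0.00116), both interferon-induced GTPases, rose too. Cxcl9 had the largest estimate against Diabetic, 2.30, and was not called (adjusted p = 0.0565). The count of 18 was 15 with the nuclear RNA covariate and 14 with quantile normalization. The 6 class II genes rose in both comparisons, beside the same 24.0% and 18.0% of all genes. H2-Ab1 was 16.4 to 23.3 RPKM in Control and 343 and 292 in Rescue. Of the 6 calls of class II genes against Diabetic, 1 was left with the nuclear RNA covariate.

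Markers of leukocytes were highest in Rescue and lowest in Control and Diabetic replicate 3, as most class I genes were. All 10 pan-leukocyte genes were higher in Rescue than in Diabetic and than in Control, although 3 of 10 were called against Diabetic without Rescue replicate 1 and 5 of 10 with the nuclear RNA covariate. Over all genes, 24.0% were called higher than in Diabetic and 18.0% higher than in Control. The summed pan-leukocyte level was 17.3 to 29.1 RPKM in Control, 131, 82.9 and 12.7 in the Diabetic libraries in order, and 633 and 566 in Rescue. Ptprc, which encodes CD45, was 0.224, 0.762 and 0.295 RPKM in Control, 5.22, 2.23 and 0.170 in Diabetic, and 21.4 and 23.8 in Rescue. Diabetic replicate 3 had the lowest pan-leukocyte sum of the 8 libraries. Of the class I members, 5 were below the Control range there, 4 inside it and 1 (H2-D1) above it. Between the Rescue libraries, replicate 1 had the higher leukocyte sum and the higher Tap1, Tap2, Psmb8, Psmb9 and Psmb10. Replicate 2 had the higher H2-K1, H2-D1, B2m, Tapbp and Nlrc5. Of the pan-leukocyte genes, Ptprc and Cd53 were higher in replicate 2 and the others in replicate 1.

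Of the 9 T cell genes, 6 passed the filter only with the Rescue libraries, and the 3 others (Cd2, Cd4 and Lck) were higher in Rescue than in Diabetic. The T cell sum, which includes those 6, was 0.431 to 1.72 RPKM in Control, 10.3, 15.5 and 0.314 in Diabetic, and 128 and 140 in Rescue. In Diabetic replicate 3, Cd3e, Cd3d, Cd3g, Cd5 and Cd8a, all among those 6, were at 0, and Cd2, Lck, Cd4 and Cd8b1 at 0.0387 to 0.133 RPKM. Values of 0 also occurred in Control, where Cd8a and Cd8b1 were at 0 in every library. Of the macrophage genes 5 of 7 were higher, and of the B cell genes 4 of 6, or 0 with the nuclear RNA covariate, without Diabetic replicate 2 or without either Rescue library, and 2 without Diabetic replicate 3. These shares stand beside the 24.0% of all genes called higher. Of the 5 dendritic cell and 3 NK cell genes tested, 4 and 2 passed the filter only with the Rescue libraries, so no count is given for them. The B cell sum was 5.20 to 25.5 RPKM in Control, 6.23 to 115 in Diabetic and 220 to 323 in Rescue, and the macrophage sum 60.0 to 110, 91.3 to 251 and 581 to 677. Of the 7 fibroblast and stellate cell genes, 3 were higher than in Diabetic and 7 higher than in Control (1 and 4 without Rescue replicate 1), and 1 of the 7 passed the filter only with the Rescue libraries. Without that gene, 2 of 6 were higher than in Diabetic and 6 of 6 higher than in Control. The shares among all genes that pass without the Rescue libraries were 19.6% and 13.2%. Over all genes, 18.0% were called higher than in Control. The part of all these cell types in the class I result was not tested.

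Beta cell genes did not follow the class I genes. Of 9, none was higher than in Diabetic and 1 was lower, beside 24.0% of all genes called higher and 5.80% called lower. With the nuclear RNA covariate 1 was higher and 1 lower. Ins1 was 58510 to 69630 RPKM in Control, 36580 to 84400 in Diabetic, and 73360 and 51670 in Rescue. The lower gene was Iapp (-1.31, adjusted p = 0.00994), whose product is secreted with insulin, and its call was lost with quantile normalization, without Diabetic replicate 2 and without Rescue replicate 1.

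**Figure D4:**
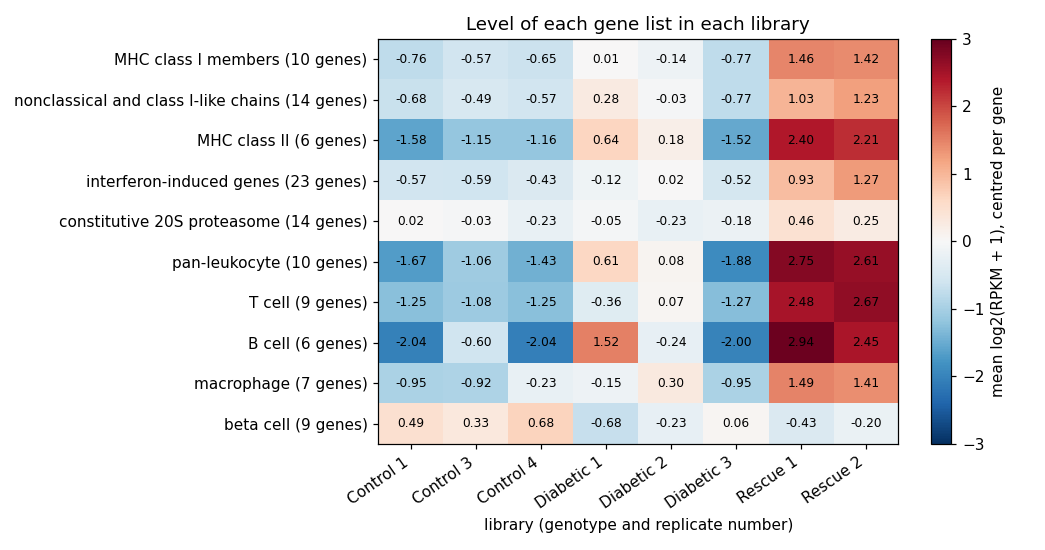
Mean log2(RPKM + 1) of each gene list in each library, after centring each gene on its mean over the 8 libraries (rows are lists with the number of genes tested, columns are libraries; red is above and blue below the gene's mean). The class I row runs from -0.77 in Diabetic replicate 3 to 1.46 in Rescue replicate 1, and the pan-leukocyte row has the same extremes at -1.88 and 2.75.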

How the data were processed

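Islet RNA of 8 libraries was read as RPKM, 1 value per gene and library, as the authors deposited them. Per the study's methods and the labels, the authors sequenced polyA RNA as read pairs, aligned with STAR to mm10, counted with HTSeq and normalized with edgeR. Versions, annotation and strand setting were not given in the sources used here.

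A gene was tested if 2 or more libraries reached 1 RPKM, which left 12594 genes. On log2(RPKM + 1), limma 3.58.1 (R 4.3.3) fitted 1 mean per genotype to the 8 libraries together, with a trended empirical Bayes step, and the two-sided p-values of the 12594 genes were adjusted by the Benjamini-Hochberg method. Calls are at an adjusted p under 0.05. The fit was tested on simulated data with the same dispersion for all genes and groups. That simulation does not cover a library that stands apart, such as Diabetic replicate 3. The filter and the pseudocount of 1 weigh most on low genes such as Nlrc5. Every gene above 0 (18126 of 18126) came out in whole reads within 0.001 read. The smallest whole reads that fit were taken, so a gene seen in a single library always fits. Reads that share a common factor come out too low. The deposited scaling differed from these totals by factors of 0.98 to 1.041.

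Ratios were compared with exact permutation tests. Named were the 10 members, Psmb5 to Psmb7, up to 4 genes of a list with the largest difference in the comparison described, the 10 nearest genes, Irs2 and Cdk4. Calr, H2-Q2, Ifng, Ins1, Ins2, Ptprc and the RFX subunits lie outside this rule and were added after their values had been seen. Members and lists were chosen with earlier results of these data known. Promoters were matched by symbol to RefSeq. The alternatives were other pseudocounts, filters, scalings, samples, variance models, weights, a nuclear RNA covariate, a replicate block and each library left out. limma voom on the recovered reads was added after the data had been seen.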

Additional observations from a re-analysis of the deposited data

How the results depend on the processing

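In Rescue against Diabetic and Rescue against Control the members kept their direction in every fit run. Their counts were 8 to 10 and 7 to 10, the lowest partly because a mean of at least 5 RPKM leaves out Psmb9 and Nlrc5. Between Diabetic and Control the count of 0 became 1 with TMM scaling and with median-of-ratios scaling, 6 with array weights (where 53.3% of all genes were called) and 0 to 6 when a library was left out. In that comparison Tap2 was -0.04 with array weights and -0.09 to 0.17 without single libraries, Psmb9 was -0.01 to 0.51 likewise, and the log2 ratio of Psmb9 to Psmb6 was -0.07 to 0.77 without single libraries. The cause was not tested. TMM scaling moved the median log2 difference of all genes from -0.122 to -0.005 (Diabetic against Control), from 0.243 to 0.085 (Rescue against Diabetic) and from 0.075 to 0.032 (Rescue against Control). Same-numbered libraries were not treated as pairs. Their deviations correlated between -0.263 and 0.372 over genes, and those of differently numbered libraries between -0.573 and 0.509. These values cannot decide whether libraries were paired, because the deviations of the 2 Rescue libraries mirror each other. With a replicate block 0, 10 and 9 members were called. edgeR and DESeq2 on recovered reads were not run, because the deposited unit is RPKM. With 2 Rescue libraries, leaving out 1 assumes that the other varies like the rest. Low genes such as Nlrc5 had 8 to 28 reads in Control and Diabetic replicate 3.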
